A study of Mus musculus with 24 samples.

Results

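Corticosterone treatment and high-fat feeding were compared directly in the inguinal fat of control mice. The contrast holds 8 of the 24 libraries of the series, 4 from control mice treated with corticosterone and 4 from control mice on a high-fat diet, and it was fitted without the chow libraries. Inguinal white adipose tissue is a subcutaneous fat depot, and its total RNA was sequenced after depletion of ribosomal RNA. Every mouse carried floxed alleles of Nr3c2, which encodes the mineralocorticoid receptor. The control mice had no Cre recombinase, so the gene was intact in them as far as the labels say. Mice of the other genotype, called FMRKO by the submitters (AdipoqCre+, MRflox/flox), carried Cre driven by the promoter of the fat cell gene Adipoq and gave the same contrast in 4 corticosterone and 4 high-fat diet libraries. Chow groups of 4 libraries per genotype complete the 6 groups. The series title describes the mice as male. The sources used here do not give the age of the mice, how much corticosterone they received or for how long, the composition or length of the diet, or whether any mice received vehicle. The food of the corticosterone mice is not stated either, so effects of the hormone and of the diet cannot be told apart in this direct contrast.

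White fat can expand under an excess of calories and under an excess of glucocorticoid. Corticosterone, the main glucocorticoid of the mouse, binds the glucocorticoid receptor (Nr3c1) and the mineralocorticoid receptor, and the bound receptors act as transcription factors. Within fat cells the enzyme 11-beta-hydroxysteroid dehydrogenase type 1 (Hsd11b1) regenerates active glucocorticoid from its inactive keto form. Dietary fat supplies ready-made fatty acids, whereas fat cells can also make fatty acids from glucose and desaturate them, a step in which stearoyl-CoA desaturase (Scd1) is central.

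The labelled tissue was checked against its markers. The adipocyte identity list, which holds Fabp4, Plin1, Cidec and Pparg among others, had a mean log2 CPM (CPM, counts scaled to library size) of 9.63, 9.25, 9.44 and 9.50 in corticosterone controls 1 to 4, against 9.33, 9.48, 9.18 and 8.43 in high-fat diet controls 1 to 4. All 8 libraries therefore carried adipocyte transcripts at high level, with high-fat diet control 4 the lowest. Lymph node lymphocyte genes had a mean log2 CPM of -1.21, -1.15, -1.63 and -1.48 in corticosterone controls 1 to 4, against 4.36, 1.36, 1.66 and 5.99 in high-fat diet controls 1 to 4. Every high-fat library lay above every corticosterone library for this list, and high-fat diet controls 1 and 4 stood far above the rest. For skeletal muscle genes the means were -0.99, 5.99, -0.29 and 0.42 in corticosterone controls 1 to 4, against 0.26, 0.67, 3.58 and 0.26 in high-fat diet controls 1 to 4, with corticosterone control 2 and high-fat diet control 3 above the others. Below, high-fat diet controls 1 and 4 are called the lymph node libraries, and corticosterone control 2 and high-fat diet control 3 the muscle libraries. The part of these neighbouring tissues in the genes below was not tested beyond the values given. In bulk tissue, fewer cells of a type and less RNA per cell cannot be told apart. The libraries are numbered in the labels but not stated to come from separate mice, so a p-value here reflects the spread between libraries, which may be technical. Total counts were 24712325 to 40427675 in the corticosterone libraries and 24178074 to 31598597 in the high-fat libraries.

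**Figure D1:**
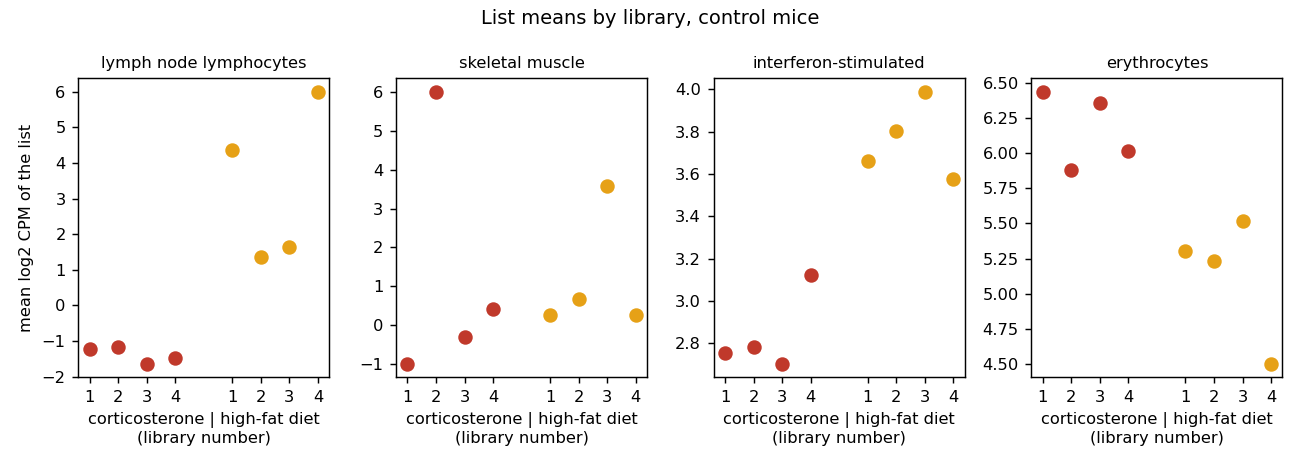
Mean log2 CPM over the members of 4 gene lists in each of the 8 control libraries, corticosterone (red) left of high-fat diet (orange), numbered by library. Lymphocyte genes reached 5.99 in high-fat diet control 4 and muscle genes 5.99 in corticosterone control 2, while interferon-stimulated genes were lower and erythrocyte genes higher in all 4 corticosterone libraries than in all 4 high-fat libraries.

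The 2 states differed in a large share of the transcriptome. Of 17025 genes tested, 1850 (10.9%) were higher and 2249 (13.2%) were lower with corticosterone than on the high-fat diet, together 24.1% at an adjusted p under 0.05 in edgeR's quasi-likelihood test with Benjamini-Hochberg adjustment over all genes. All later statements that a gene was higher or lower rest on this test unless another is named, and fold changes are log2 of corticosterone over high-fat diet ± SE from 4 against 4 libraries. A change of at least 2-fold was found for 437 of the higher and 1339 of the lower genes. The median log2 fold change over all genes was -0.02. These shares, 10.9% higher and 13.2% lower, are the background for every list count below. The lists were chosen with earlier results of these data known, so their counts describe the data and carry no test. For list counts in FMRKO mice the background is 11.6% higher and 10.4% lower. The groups did not overlap in 5132 genes (30.1%), and 6480 had an unadjusted p under 0.05. The number of higher genes was 1193, 1171 and 1114 without corticosterone control 1, 3 or 4, and the number of lower genes 1494 and 1458 without corticosterone control 3 or 4. Without the lymph node libraries 1622 were higher and 1916 lower, without the muscle libraries 944 and 1445, and without all 4 of them, 376 and 752. That last fit holds 3 corticosterone libraries and a single high-fat library, so its spread comes from the corticosterone libraries alone. Calls lost in that fit are not listed by gene below. Calls lost with the lymphocyte and muscle list means as covariates are given for some genes only, and are counted at the end.

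The FMRKO mice gave the same contrast in other libraries. There 2021 of 17401 genes (11.6%) were higher and 1817 (10.4%) lower with corticosterone than on the high-fat diet. Of the 4099 genes called in control mice, 4069 were tested in FMRKO mice, and 3990 of these (98.1%) had the same sign there, against 81.8% of all 16755 genes tested in both. Calls with the same sign numbered 2590, which is 63.7% of those 4069 and 67.5% of the 3838 genes called in FMRKO mice, and 0 calls had opposite signs. The FMRKO counts also depended on single libraries, with 1263, 1276 and 1335 higher genes without corticosterone FMRKO 1, corticosterone FMRKO 4 or high-fat diet FMRKO 1, and 1159 lower genes without corticosterone FMRKO 4.

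**Figure D2:**
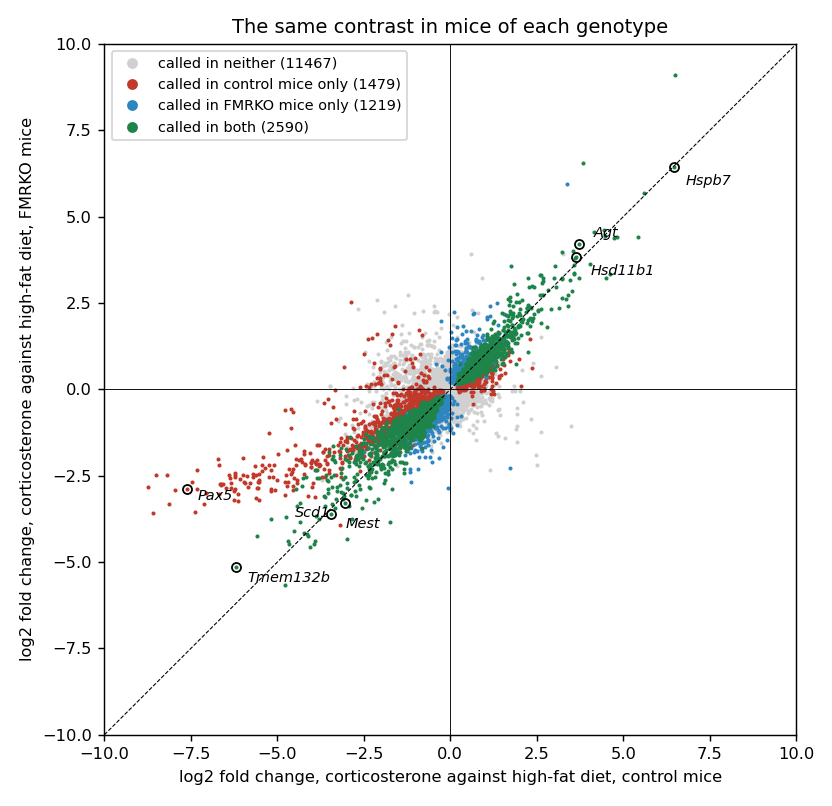
Each point is 1 of 16755 genes, with its log2 fold change of corticosterone over high-fat diet in control mice (x axis) and in FMRKO mice (y axis), coloured by where it was called; the dashed line marks equal values. Genes called in both lie near the line, and a band of genes called in control mice only, Pax5 among them, runs along the lower left.

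The chow libraries of control mice, which took no part in the test, were used to place the called genes, on the scale of log2(CPM + 0.1). For 1208 of the 1850 higher genes (65.3%) the chow mean was nearer to the high-fat diet mean, and for 642 (34.7%) nearer to the corticosterone mean. Among the 2249 lower genes, 1415 (62.9%) had a chow mean nearer to the high-fat diet and 834 (37.1%) nearer to corticosterone. In both directions the corticosterone mean was thus the one further from chow for most called genes. The chow mean lay below both treated means in 731 of the higher genes and above both in 673 of the lower ones. These placements carry no test.

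The enzyme pair that regenerates glucocorticoid inside cells was higher with corticosterone. Hsd11b1 stood at 774, 395, 427 and 763 CPM in corticosterone controls 1 to 4, against 45.8, 44, 59.6 and 41.3 CPM in high-fat diet controls 1 to 4. Each corticosterone library lay above each high-fat library, with controls 1 and 4 the highest. The log2 fold change was 3.63 ± 0.27, adjusted p = 2.5e-04, and chow controls averaged 79.7 ± 19.97 CPM (SD, n = 4). H6pd, the hexose-6-phosphate dehydrogenase that supplies the NADPH used by this enzyme, was at 1056, 823, 766 and 834 CPM in corticosterone controls 1 to 4, against 382, 428, 429 and 273 CPM in high-fat diet controls 1 to 4. These groups did not overlap either (1.20 ± 0.17, adjusted p = 0.0018), and chow controls averaged 448 ± 50.2 CPM. In FMRKO mice the values were 3.83 ± 0.23 for Hsd11b1 and 0.98 ± 0.13 for H6pd (adjusted p = 9.6e-05 and 0.0013).

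The receptors themselves did not pass the test. Nr3c1 was at 159.6, 158, 174 and 162 CPM in corticosterone controls 1 to 4, against 151, 159, 153 and 128 CPM in high-fat diet controls 1 to 4, which overlap (0.15 ± 0.08, adjusted p = 0.218). Nr3c2 had -0.32 ± 0.13, adjusted p = 0.108, although its 4 corticosterone values lay below its 4 high-fat values. Hsd11b2, which inactivates corticosterone, had -0.38 ± 0.27, adjusted p = 0.337. The authors' deposited RPKM, which divide by gene length and so allow levels to be compared between genes, gave Hsd11b1 205 ± 71.9 in corticosterone and 16.6 ± 2.59 in high-fat libraries, and Hsd11b2 1.1 ± 0.18 and 1.42 ± 0.449 (SD, n = 4 each). On the same scale Nr3c1 was at 20.7 ± 0.904 and 18.7 ± 0.318, and Nr3c2 at 2.42 ± 0.289 and 3.03 ± 0.413, so the glucocorticoid receptor transcript exceeded the mineralocorticoid receptor transcript in both groups. Of the 9 genes of this list tested, 3 were higher and 0 lower, the third being the chaperone gene Hsp90ab1 (0.41 ± 0.10), and the list's median was 0.15, beside -0.02 over all genes. Hsp90ab1 lost its call without corticosterone control 1, 3 or 4 or high-fat diet control 3 (0.40 to 0.41) and without both muscle libraries (0.44). Hsp90ab1 also missed the threshold with the replicate number as a block (adjusted p = 0.064).

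Genes listed as responding to glucocorticoids were more often higher than lower with corticosterone. The list was chosen with earlier results of these data known, so its counts are a description and not independent support. Of 25 listed genes, 12 were higher and 2 lower, with a median log2 fold change of 0.69, and in FMRKO mice 12 were higher and 1 lower. Over all genes tested 10.9% were higher and 13.2% lower, against 11.6% and 10.4% in FMRKO mice. Fkbp5, the co-chaperone that restrains receptor activity, was at 411, 250.0, 188 and 248 CPM in corticosterone controls 1 to 4, against 86.4, 109, 67 and 54.1 CPM in high-fat diet controls 1 to 4. Its groups did not overlap, corticosterone control 1 being the highest (1.80 ± 0.28, adjusted p = 0.0030). Hif3a, a hypoxia-inducible factor family member, was at 73, 33.2, 14.9 and 46.4 CPM in corticosterone controls 1 to 4, against 1.32, 2.96, 2.54 and 2.58 CPM in high-fat diet controls 1 to 4. It was higher in each corticosterone library than in each high-fat library, with a range of several-fold among the corticosterone libraries (4.15 ± 0.49, adjusted p = 9.3e-04). With the lymphocyte and muscle list means as covariates, Fkbp5 (1.25, adjusted p = 0.208) and Hif3a (3.87, adjusted p = 0.078) missed the threshold.

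The metallothioneins, small proteins that bind zinc and copper, moved together. Mt1 was at 1053, 1155, 717 and 788 CPM in corticosterone controls 1 to 4, against 209, 265, 187 and 126 CPM in high-fat diet controls 1 to 4. Mt2 was at 887, 1135, 609 and 743 CPM in corticosterone controls 1 to 4, against 175, 212, 163 and 103 CPM in high-fat diet controls 1 to 4. Both were without overlap between the groups and had log2 fold changes of 2.24 ± 0.24 and 2.37 ± 0.25 (adjusted p = 6.8e-04 and 6.5e-04), with chow means of 312 ± 148 CPM and 261 ± 169.9 CPM. The genes lie next to each other and resemble each other in sequence, so reads could be split between them. With the lymphocyte and muscle list means as covariates, Mt1 (1.68, adjusted p = 0.070) and Mt2 (1.83, adjusted p = 0.055) missed the threshold. Sult1a1, a sulfotransferase, had 1.23 ± 0.23, adjusted p = 0.0071, and Map3k6, a stress kinase gene, 1.14 ± 0.19, adjusted p = 0.0038. Tsc22d3, which encodes the anti-inflammatory protein GILZ, had 0.99 ± 0.22, adjusted p = 0.013, and the zinc finger gene Zbtb16 had 1.05 ± 0.29, adjusted p = 0.031. Lower were Ddit4 (-1.32 ± 0.38), an inhibitor of mTOR signalling, and Nfkbia (-0.66 ± 0.14), an inhibitor of NF-kappa-B. Per1 (0.15 ± 0.27, adjusted p = 0.717), the kinase gene Sgk1 (-0.45 ± 0.22, adjusted p = 0.171) and Lcn2 (0.19 ± 0.45, adjusted p = 0.782) did not pass. Zbtb16 lost its call without corticosterone control 1, 2 or 4 or high-fat diet control 1 or 3 (0.87 to 1.13), without both lymph node libraries (0.91), without both muscle libraries (1.07) and in limma-voom with quality weights (adjusted p = 0.067). Zbtb16 also missed the threshold with the replicate number as a block (adjusted p = 0.051). Tsc22d3 lost its call without both lymph node libraries (0.89) and without both muscle libraries (0.89). Ddit4 lost its call without corticosterone control 2, 3 or 4 or high-fat diet control 2 or 3 (-1.37 to -1.08), without both lymph node libraries (-1.55) and without both muscle libraries (-0.998).

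Promoters of the called glucocorticoid-responsive genes were searched for the palindromic glucocorticoid response element, whose ACA and TGT cores stand 3 bases apart, on both strands of 250 bases before to 50 after each start. It was present in 156 of 32851 RefSeq promoters of this length (0.475%), and in 2 of the 10 higher genes with a promoter in the table, Map3k6 and Mt1, and in 0 of 2 lower genes. The promoters are shown because they place the match beside genes that were higher with corticosterone. Capitals mark the match, 94 bases before the start of Mt1 (chr8:94178839-94179138, GRCm38.p6, plus strand) and 181 bases before the start of Map3k6 (chr4:133240568-133240867, GRCm38.p6, plus strand). A match is a description of the sequence, and binding was not measured.
Mt1: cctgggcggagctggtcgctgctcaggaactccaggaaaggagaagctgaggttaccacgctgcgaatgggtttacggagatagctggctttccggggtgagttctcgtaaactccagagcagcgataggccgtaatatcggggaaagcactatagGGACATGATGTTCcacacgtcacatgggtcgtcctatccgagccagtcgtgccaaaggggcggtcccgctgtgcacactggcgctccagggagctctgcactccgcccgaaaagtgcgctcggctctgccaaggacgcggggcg
Map3k6: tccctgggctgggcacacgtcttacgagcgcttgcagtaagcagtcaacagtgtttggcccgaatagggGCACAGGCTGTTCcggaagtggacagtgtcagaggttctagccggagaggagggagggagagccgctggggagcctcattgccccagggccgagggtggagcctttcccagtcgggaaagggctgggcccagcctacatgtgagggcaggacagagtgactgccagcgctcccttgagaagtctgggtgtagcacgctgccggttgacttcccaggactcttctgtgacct

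The 12 largest increases with corticosterone were picked by fold change, a ranking that favours genes at low level on the high-fat diet. A gene could also reach the required mean of 1 CPM through the corticosterone libraries alone. Hspb7, a small heat shock protein gene known from heart and muscle, was at 241, 360.1, 217 and 298 CPM in corticosterone controls 1 to 4, against 2.39, 2.87, 4.24 and 2.95 CPM in high-fat diet controls 1 to 4. The groups were far apart (6.48 ± 0.25, adjusted p = 1.6e-05), and chow controls averaged 1.93 ± 2.05 CPM, close to the high-fat level. Ripply1, a transcriptional repressor gene known from somite formation, was at 1.36, 2.1, 0.99 and 4.23 CPM in corticosterone controls 1 to 4, against 0, 0, 0.0695 and 0 CPM in high-fat diet controls 1 to 4. A fitted fold change against a group with 3 of 4 libraries at 0 depends on the prior count, so none is given for Ripply1. The next by size were Cpne9 (5.60 ± 0.48), a copine, Egfem1 (4.82 ± 0.82), the homeobox gene Lbx1 (4.74 ± 0.36), the ribonuclease gene Rnase2a (4.51 ± 0.85), the sodium-activated potassium channel gene Kcnt1 (4.46 ± 0.66), the chromatin architectural gene Hmga2 (4.45 ± 0.73), Aard (4.04 ± 0.37) and the fructose transporter gene Slc2a5 (3.84 ± 0.61). Several of these were near the floor on the high-fat diet, where the size of a fold change is uncertain. Lbx1 was at 0.082 to 0.15 CPM there, and Rnase2a at 0.07 to 0.088 CPM in high-fat diet controls 2 to 4. Egfem1 and Kcnt1 were at 0 CPM in high-fat diet control 1. Agt, the precursor of angiotensin, was at 123, 75, 112 and 231 CPM in corticosterone controls 1 to 4, against 5.64, 5.12, 24.4 and 5.65 CPM in high-fat diet controls 1 to 4. High-fat diet control 3 was the highest of its group, and still lay below every corticosterone library (3.72 ± 0.61, adjusted p = 0.0038). All 12 genes with the largest increases, these and Hif3a, were also higher in FMRKO mice, Rnase2a with the smallest change there at 3.22 ± 0.82, adjusted p = 0.023. Egfem1 (3.71), Rnase2a (6.35), Kcnt1 (5.13), Hmga2 (5.06), Slc2a5 (2.09) and Agt (2.20) missed the threshold with the lymphocyte and muscle list means as covariates. Their adjusted p were 0.295, 0.145, 0.075, 0.133, 0.365 and 0.319. Ripply1 missed it too (adjusted p = 0.844), as did Hif3a, given above. Hspb7, Cpne9, Lbx1 and Aard kept their calls with these covariates.

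The 12 largest decreases with corticosterone, outside the marker lists of neighbouring tissues, lay between -8.73 and -6.58. They included Fcmr, Cacna1i, Gpr174, Spib, Lef1, Slamf6, Bcl11b, Cd6, Sidt1, H2-Ob and the B-cell factor Pax5. In FMRKO mice 0 of these 12 were called. The lymphocyte list mean there was -1.25, 2.66, 2.31 and -1.52 in corticosterone FMRKO 1 to 4. In high-fat diet FMRKO 1 to 4 it was 4.12, 0.523, 0.565 and 5.48, so the groups overlapped. In control mice each of the 12 genes had its highest level in high-fat diet control 4 and its next highest in high-fat diet control 1. These are the lymph node libraries, whose lymphocyte list means are given above. With the list means of lymphocytes and muscle as covariates in the fit, the genes named lay between -3.07 for Gpr174 and 0.61 for Spib. Bcl11b kept its call there and in all 22 alternatives, with adjusted p up to 0.041, and the other 10 missed it with the covariates. In limma-voom with quality weights, Fcmr, Pax5, Lef1 and Spib missed the threshold (adjusted p = 0.062, 0.059, 0.097 and 0.099). A further set was chosen after these values were seen. It takes genes that met the same criteria in control mice and were also called in FMRKO mice. They were also called, for both genotypes, in fits without high-fat diet libraries 1 and 4. Corticosterone FMRKO 2 and 3, whose lymphocyte means are given above, stayed in the FMRKO fit. The set holds 1617 genes, 815 higher and 802 lower.

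In that set the 12 largest decreases were in genes whose chow mean lay nearer to the corticosterone mean than to the high-fat mean on the log2(CPM + 0.1) scale, except for Aplnr (chow mean 24.5 ± 7.17 CPM). Tmem132b, a membrane protein gene, was at 0.143, 0.499, 0.371 and 0.299 CPM in corticosterone controls 1 to 4, against 6.34, 29.2, 34.2 and 29.4 CPM in high-fat diet controls 1 to 4. All 4 corticosterone libraries lay near the chow mean of 0.464 ± 0.188 CPM (-6.19 ± 0.61, adjusted p = 5.0e-04). Ncan, which encodes the proteoglycan neurocan, was at 46.9, 45.4, 55.5 and 17.2 CPM in corticosterone controls 1 to 4, against 778, 915, 771 and 453 CPM in high-fat diet controls 1 to 4. It did not overlap between groups (-4.14 ± 0.38, adjusted p = 4.1e-04), and its chow mean was 7.71 ± 5.5 CPM. The lysophosphatidic acid receptor gene Lpar3 (-5.59 ± 0.52), Gsg1l (-4.79 ± 0.57), the secreted phospholipase gene Pla2g2e (-4.66 ± 0.30), the carbonic anhydrase gene Car12 (-4.51 ± 0.51), the ubiquitin-like gene Ubd (-4.42 ± 0.42), Wnt8b (-4.26 ± 0.35), Pramef12 (-4.23 ± 0.61), the apelin receptor gene Aplnr (-4.11 ± 0.46) and Tph2 (-4.06 ± 0.47), an enzyme of serotonin synthesis, followed, with Ucp1 described below. Timp4, an inhibitor of metalloproteinases, was the 12th of the higher genes in the same set (3.72 ± 0.23, adjusted p = 2.0e-04).

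Among abundant transcripts, the actin-binding genes Gsn (1.09 ± 0.24) and Tns1 (0.99 ± 0.20), the intermediate filament gene Vim (1.04 ± 0.16), the carbonic anhydrase gene Car3 (0.91 ± 0.27) and Ahnak (0.69 ± 0.17) were the 5 higher genes of highest level. The 5 lower genes of highest level were Scd1 and Scd2, described below, Tuba1a (-1.24 ± 0.26), a tubulin, Trp53inp2 (-0.84 ± 0.21), a regulator of autophagy, and the class I antigen gene H2-D1 (-0.61 ± 0.13). Gsn lost its call without both muscle libraries (1.05). Tns1 lost its call without both muscle libraries (0.99). Car3 lost its call without corticosterone control 1, 2, 3 or 4 or high-fat diet control 1 or 3 (0.85 to 1.01), without both muscle libraries (0.95) and with no filter on low counts (adjusted p = 0.070). Car3 also missed the threshold with the replicate number as a block (adjusted p = 0.057). Ahnak lost its call without corticosterone control 1, 2, 3 or 4 or high-fat diet control 1 (0.66 to 0.73) and without both muscle libraries (0.71). Trp53inp2 lost its call without corticosterone control 2, 3 or 4 or high-fat diet control 1 or 3 (-0.87 to -0.73) and without both muscle libraries (-0.79). H2-D1 lost its call without corticosterone control 3 (-0.59) and without both muscle libraries (-0.54).

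Of the classic adipokines, none of leptin, adiponectin, resistin and adipsin passed the test in control mice. Lep, the hormone leptin, was at 3012, 3412, 2714 and 1961 CPM in corticosterone controls 1 to 4, against 1464, 2209.9, 2146 and 1542 CPM in high-fat diet controls 1 to 4. The ranges overlapped, and the log2 fold change of 0.59 ± 0.21, adjusted p = 0.076, missed the threshold, while in FMRKO mice Lep was higher (0.93 ± 0.18, adjusted p = 0.0065). Both treated groups were far above the chow mean of 173 ± 64.8 CPM. Adipoq, the hormone adiponectin, was at 1488, 1334, 1581 and 1664 CPM in corticosterone controls 1 to 4, against 1256, 1568, 1528 and 802 CPM in high-fat diet controls 1 to 4. Its groups overlapped, high-fat diet control 4 being the lowest (0.24 ± 0.20, adjusted p = 0.425). Retn (0.48 ± 0.24, adjusted p = 0.179), the adipsin gene Cfd (-0.23 ± 0.29, adjusted p = 0.601) and the adipogenic receptor Pparg (0.56 ± 0.19, adjusted p = 0.065) did not pass. Of 16 adipokine genes 2 were higher and 2 lower (median -0.10), the higher ones being Agt and Nampt (1.01 ± 0.17), and Nrg4 (-0.94 ± 0.26) being among the lower ones. The share of adipokine genes called was near the 24.1% of all genes. Nrg4 lost its call without corticosterone control 2, 3 or 4 or high-fat diet control 1, 2 or 3 (-1.05 to -0.82) and without both muscle libraries (-0.81).

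Genes known to mark fat expansion went in both directions. Mest, an imprinted gene of the hydrolase family that marks growing fat, was at 52.4, 91.8, 152 and 40.9 CPM in corticosterone controls 1 to 4, against 698, 1052, 1169.9 and 778 CPM in high-fat diet controls 1 to 4. Every high-fat library exceeded every corticosterone library (-3.46 ± 0.42, adjusted p = 0.0010), and both treated groups exceeded the chow controls, which ran from 7.57 to 21.1 CPM. Nnat, another imprinted gene, was at 1294, 1731, 1647 and 2022 CPM in corticosterone controls 1 to 4, against 492, 567, 537 and 355 CPM in high-fat diet controls 1 to 4. It went the other way, without overlap (1.78 ± 0.19, adjusted p = 6.2e-04). Of the 14 genes of the list, 3 were higher and 3 lower (median -0.46), with Bmp3 (0.73 ± 0.16), Npr3 (0.59 ± 0.18), the natriuretic peptide clearance receptor gene, and Col6a3 (-0.996 ± 0.29) as further examples. In FMRKO mice 3 were higher and 5 lower. Higher fat expansion genes numbered 1 without both lymph node libraries and 1 without both muscle libraries. Lower fat expansion genes numbered 1 to 5 without corticosterone control 4 or high-fat diet control 1, 3 or 4 and 1 without both muscle libraries. Bmp3 lost its call without both lymph node libraries (0.59) and without both muscle libraries (0.71). Npr3 lost its call without corticosterone control 1, 2 or 3 or high-fat diet control 1 or 2 (0.53 to 0.66), without both lymph node libraries (0.39), without both muscle libraries (0.62) and with no filter on low counts (adjusted p = 0.062). Col6a3 lost its call without corticosterone control 1 or 4 or high-fat diet control 1, 2 or 3 (-0.98 to -0.80) and without both muscle libraries (-1.11).

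The lipogenic genes split into those lower and those higher with corticosterone. Of all counts, Scd1 made up 0.799, 1.6, 1.17 and 0.816% in corticosterone controls 1 to 4, against 11, 9.32, 9.21 and 5.8% in high-fat diet controls 1 to 4. Each corticosterone share was below each high-fat share (exact permutation test over the 8 libraries, two-sided p = 0.0286, the smallest that 4 against 4 can give, and 0.0429 adjusted over 3 shares tested). The mean level was 11646 CPM with corticosterone and 95559 CPM on the high-fat diet (-3.04 ± 0.42, adjusted p = 0.0019), with chow at 20406 ± 6025 CPM. Scd2, its homologue, had 344, 459.9, 412 and 285 CPM in corticosterone controls 1 to 4, against 2113, 2100.1, 1894 and 1178 CPM in high-fat diet controls 1 to 4. The groups were well separated (-2.28 ± 0.22, adjusted p = 5.0e-04). The other lower genes were the delta-6 desaturase gene Fads2 (-1.83 ± 0.29), Acss2 (-1.76 ± 0.27), which makes acetyl-CoA from acetate, the citrate carrier gene Slc25a1 (-1.23 ± 0.22) and the elongase gene Elovl5 (-0.76 ± 0.11).

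Higher with corticosterone were Thrsp, Mlxipl, Tkt, Acaca, G6pdx and Acly. Thrsp, the lipogenic protein Spot 14, was at 1292, 688, 853 and 1019.7 CPM in corticosterone controls 1 to 4, against 269.8, 247, 189 and 106 CPM in high-fat diet controls 1 to 4. Its groups did not overlap (2.25 ± 0.31, adjusted p = 0.0017), and chow averaged 229 ± 102 CPM. Mlxipl encodes ChREBP, the glucose-responsive regulator of lipogenesis (1.73 ± 0.22, adjusted p = 0.0013). Next came the pentose phosphate genes Tkt (0.92 ± 0.22) and G6pdx (0.80 ± 0.12), with the acetyl-CoA carboxylase gene Acaca (0.90 ± 0.25) and the ATP citrate lyase gene Acly (0.75 ± 0.22). Fasn, the fatty acid synthase, had 0.13 ± 0.29, adjusted p = 0.769, and Srebf1, the regulator known to drive Scd1 and Fasn, -0.44 ± 0.16, adjusted p = 0.078. In all 21 genes were tested with a median of 0.08, and in FMRKO mice 5 were higher and 7 lower. High-fat diet control 4 had the lowest list mean, 7.75 against 8.49 in the other 3 high-fat libraries. Higher de novo lipogenesis genes numbered 3 without corticosterone control 1. Tkt lost its call without corticosterone control 1 (0.77). Acaca lost its call without corticosterone control 1, 3 or 4 or high-fat diet control 3 (0.73 to 0.95), without both lymph node libraries (0.81) and without both muscle libraries (1.02). Acly lost its call without corticosterone control 1, 3 or 4 or high-fat diet control 1, 2, 3 or 4 (0.51 to 0.82), without both lymph node libraries (0.68) and without both muscle libraries (0.85).

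**Figure D3:**
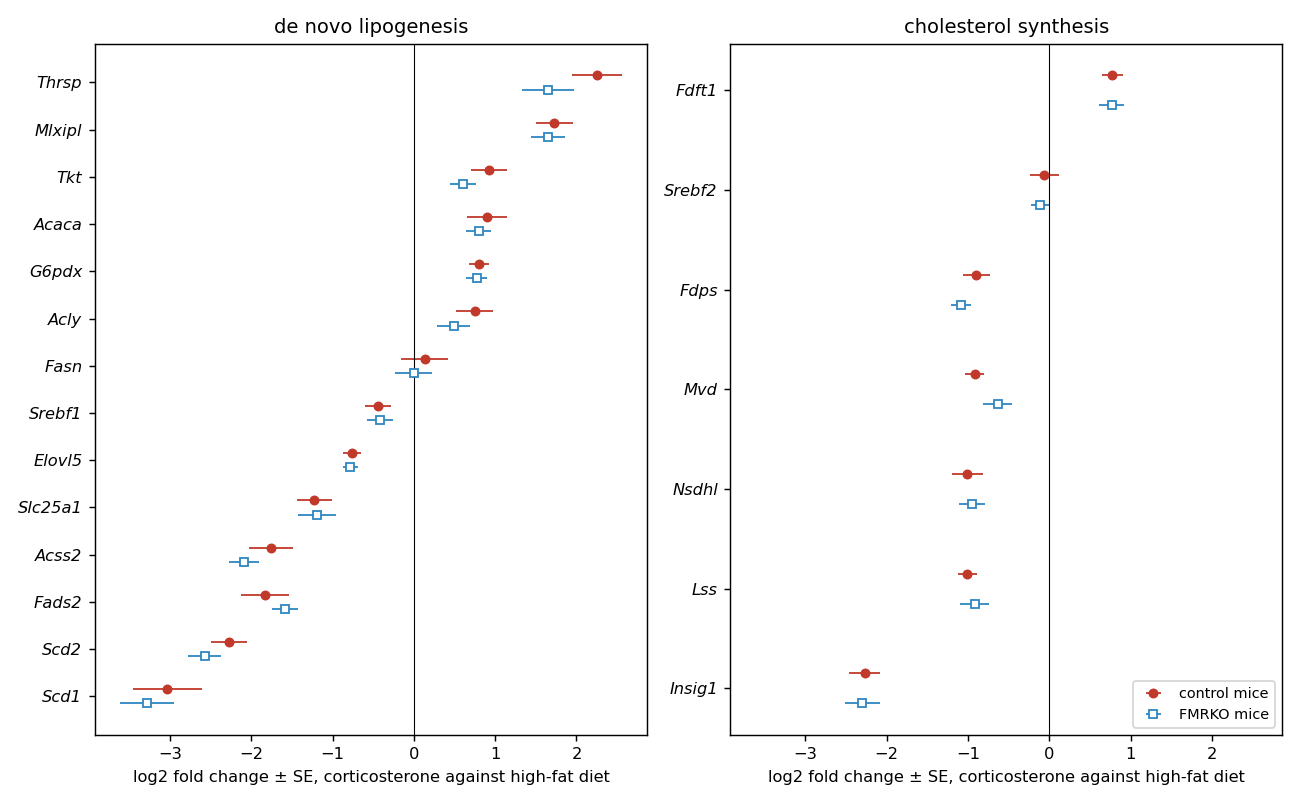
Log2 fold change ± SE of corticosterone over high-fat diet for the members named here of the lipogenesis list (left) and the cholesterol synthesis list (right), in control mice (red circles) and FMRKO mice (open blue squares), 4 against 4 libraries each. Scd1, Scd2 and Insig1 lie furthest to the left and Thrsp and Mlxipl furthest to the right in both genotypes.

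Genes of cholesterol synthesis were more often lower than higher with corticosterone. Insig1, which holds the SREBP cleavage complex in the endoplasmic reticulum when sterols are plentiful, was at 149, 162, 189 and 135 CPM in corticosterone controls 1 to 4, against 742, 968, 849 and 518 CPM in high-fat diet controls 1 to 4. Each high-fat library exceeded each corticosterone library (-2.27 ± 0.19, adjusted p = 3.4e-04), and chow controls averaged 93.1 ± 32.2 CPM. Of 20 genes 2 were higher and 8 lower, with a median of -0.40, and in FMRKO mice 2 were higher and 11 lower. Among the lower ones were Lss (-1.01 ± 0.12), Nsdhl (-1.01 ± 0.20), Mvd (-0.92 ± 0.12) and Fdps (-0.90 ± 0.17), all enzymes of the pathway. The squalene synthase gene Fdft1 (0.78 ± 0.13) was among the higher ones. Srebf2, the regulator of the pathway, had -0.06 ± 0.18, adjusted p = 0.8293. The sterol regulatory element written TCACNCCAC, searched on both strands, was in 408 of 32851 promoters (1.24%) and in 0 of the 6 lower genes with a promoter in the table.

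Genes of insulin signalling and glucose transport were more often higher than lower with corticosterone. Slc2a4, the insulin-responsive glucose transporter GLUT4, was at 297, 227, 259 and 254 CPM in corticosterone controls 1 to 4, against 109, 105, 107 and 52.9 CPM in high-fat diet controls 1 to 4. Each corticosterone library exceeded each high-fat library, of which control 4 was the lowest (1.47 ± 0.21, adjusted p = 0.0022), and chow averaged 126 ± 49.1 CPM. Of 18 listed genes 10 were higher and 1 lower (median 0.52), and in FMRKO mice 9 were higher and 2 lower. The adaptor genes Irs3 (1.396 ± 0.14) and Irs1 (0.84 ± 0.20), the adaptor Grb10 (0.99 ± 0.10), known to restrain the insulin receptor, and the regulatory PI3-kinase subunit gene Pik3r1 (0.95 ± 0.17) were among them. The lower one was Igf1 (-0.86 ± 0.21). Of 18 genes of glycolysis and glyceroneogenesis 5 were higher and 1 lower (median 0.26), with the pyruvate dehydrogenase gene Pdha1 (0.87 ± 0.16) and the phosphofructokinase gene Pfkp (-0.43 ± 0.08). Lower insulin genes numbered 3 without high-fat diet control 4 and 3 without both lymph node libraries. Higher glycolysis and glyceroneogenesis genes numbered 1 to 3 without corticosterone control 1, 2, 3 or 4 or high-fat diet control 1 or 3, 3 without both lymph node libraries and 2 without both muscle libraries. Irs1 lost its call without corticosterone control 3 (0.79) and without both muscle libraries (0.83). Igf1 lost its call without corticosterone control 1, 2 or 4 or high-fat diet control 3 (-0.86 to -0.74) and without both muscle libraries (-0.75). Slc2a4 (0.70), Pik3r1 (0.35), Irs1 (0.34), Grb10 (0.63) and Pdha1 (0.31) missed the threshold with the lymphocyte and muscle list means as covariates. Their adjusted p were 0.275, 0.464, 0.654, 0.052 and 0.488. Irs3, Igf1 and Pfkp kept their calls with these covariates.

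Among genes of the fat cell's lipid store, the share called was near the 24.1% of all genes for triglyceride synthesis and adipocyte identity and below it for lipolysis. Of 18 genes of triglyceride synthesis and fatty acid uptake, 4 were higher and 1 lower (median 0.17), the higher ones including the monoacylglycerol acyltransferase gene Mogat2 (1.27 ± 0.26) and the acyltransferase gene Agpat3 (0.69 ± 0.11). The lower one, Agpat2 (-0.98 ± 0.19), acylates lysophosphatidic acid. Of 18 genes of lipolysis and the lipid droplet 1 was higher and 1 lower (median 0.01), the hormone-sensitive lipase gene Lipe having 0.46 ± 0.19, adjusted p = 0.114 and the triglyceride lipase gene Pnpla2 0.71 ± 0.23, adjusted p = 0.053. In the adipocyte identity list 4 were higher and 1 lower of 19 (median 0.36), with Slc2a4 and Klf15 (1.23 ± 0.24), a transcription factor also known to respond to glucocorticoids. In FMRKO mice the counts were 3 higher and 0 lower, 5 and 2, and 6 and 1 for the 3 lists. Higher triglyceride genes numbered 2 without corticosterone control 1, 2, 3 or 4. Lower triglyceride genes numbered 3 without high-fat diet control 4. Higher lipolysis genes numbered 3 to 4 without high-fat diet control 2 or 4. Lower lipolysis genes numbered 5 without high-fat diet control 4 and 5 without both lymph node libraries. Higher adipocyte identity genes numbered 2 to 8 without corticosterone control 1, 3 or 4 or high-fat diet control 1, 2 or 4 and 2 without both muscle libraries. Agpat2 lost its call without both muscle libraries (-0.85).

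Genes for the mitochondrial breakdown of branched-chain amino acids, where they passed the test, were higher with corticosterone. Bcat2, which removes the amino group from leucine, isoleucine and valine, was at 188, 138, 153 and 180.1 CPM in corticosterone controls 1 to 4, against 71.6, 72.1, 62.9 and 41 CPM in high-fat diet controls 1 to 4. The groups did not overlap (1.42 ± 0.18, adjusted p = 0.0012), and chow averaged 153 ± 38.7 CPM, near the corticosterone level. Of 20 genes 7 were higher and 0 lower (median 0.40), and in FMRKO mice 11 were higher and 0 lower. Others were Ivd (1.19 ± 0.20) for leucine, Dbt (1.12 ± 0.19) of the branched-chain keto acid dehydrogenase, Aldh6a1 (0.94 ± 0.19) and Hibch (0.81 ± 0.16) for valine. Bcat2 (0.83), Ivd (0.75), Dbt (0.40), Aldh6a1 (0.22) and Hibch (0.14) all missed the threshold with the lymphocyte and muscle list means as covariates. Their adjusted p were 0.136, 0.277, 0.454, 0.693 and 0.737. The list mean of high-fat diet control 4 was 5.67, against 6.29 to 6.39 in the other 3 high-fat libraries. Of 22 oxidative phosphorylation genes 3 were higher and 1 lower (median 0.25; Sdhb (0.69 ± 0.15) of complex II), with 10 higher and 1 lower in FMRKO mice. Of 19 genes of fatty acid oxidation and the TCA cycle 0 were higher and 1 lower, the 1 being the carnitine palmitoyltransferase gene Cpt1a (-1.11 ± 0.15), with 2 higher and 2 lower in FMRKO mice. In control mice the share called in the oxidative phosphorylation and oxidation lists was below the 24.1% of all genes. Transcripts of the mitochondrial genome made up 4.31% to 5.49% of counts with corticosterone and 3.23% to 4.52% on the high-fat diet (exact permutation p = 0.114). Higher oxidative phosphorylation genes numbered 1 without corticosterone control 3 or 4 or high-fat diet control 1 and 1 without both lymph node libraries. Lower oxidation genes numbered 5 without high-fat diet control 4 and 4 without both lymph node libraries.

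Genes of thermogenic fat were more often lower than higher, Ucp1 the most. Ucp1, the uncoupling protein of brown and beige fat cells, was at 2.01, 1.21, 0.413 and 0.898 CPM in corticosterone controls 1 to 4, against 37.6, 36.2, 13.7 and 5.35 CPM in high-fat diet controls 1 to 4. All corticosterone libraries were below all high-fat libraries, which differed several-fold among themselves (-4.33 ± 0.70, adjusted p = 0.0036). Chow controls ranged from 0 to 2.89 CPM. Of 14 genes 1 was higher and 7 lower (median -0.90), and in FMRKO mice 1 was higher and 5 lower. The proton channel gene Otop1 (-3.41 ± 0.54), the cytochrome oxidase subunit gene Cox8b (-2.98 ± 0.42), the lipid droplet gene Cidea (-2.20 ± 0.52) and the hormone gene Fgf21 (-1.80 ± 0.36) were lower. Ppargc1a, the coactivator of mitochondrial genes, was higher (0.91 ± 0.19, adjusted p = 0.011). Lower thermogenic fat genes numbered 4 without both muscle libraries. Cidea lost its call without corticosterone control 2, 3 or 4 (-2.12 to -2.06) and without both muscle libraries (-2.20). Fgf21 lost its call without both muscle libraries (-1.46) and in a fit of all 24 libraries (adjusted p = 0.071).

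The growth hormone and IGF axis differed at the receptor and at the binding proteins. Ghr, the growth hormone receptor, was at 2017, 1722, 1841 and 1829 CPM in corticosterone controls 1 to 4, against 637, 815, 795 and 458 CPM in high-fat diet controls 1 to 4. Every corticosterone library exceeded every high-fat library (1.46 ± 0.18, adjusted p = 0.0011), and chow averaged 996 ± 124 CPM. Igfbp3, which carries IGF1 in the circulation and tissue, was at 223, 104, 117.1 and 149 CPM in corticosterone controls 1 to 4, against 21.4, 21.9, 25.8 and 41.4 CPM in high-fat diet controls 1 to 4. It did not overlap either (2.42 ± 0.30, adjusted p = 0.0011), with chow at 28.1 ± 16.6 CPM. Igfbp4 (1.23 ± 0.14) and Igfbp5 (0.85 ± 0.23) were also higher, and Igf1 lower, as given with the insulin genes. That made 4 higher and 1 lower of 11 genes (median 0.21), against 4 and 2 in FMRKO mice. Lower IGF system genes numbered 3 without high-fat diet control 4. Igfbp5 lost its call without corticosterone control 2 or 3 or high-fat diet control 1 or 2 (0.67 to 0.91), without both lymph node libraries (0.78), without both muscle libraries (0.71) and in a fit of all 24 libraries (adjusted p = 0.062).

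Endothelial transcripts were lower with corticosterone. Pecam1, the adhesion molecule CD31, was at 93.6, 85.3, 89.9 and 83.4 CPM in corticosterone controls 1 to 4, against 171, 187, 194 and 218 CPM in high-fat diet controls 1 to 4. The groups did not overlap and were each narrow (-1.13 ± 0.09, adjusted p = 3.2e-04), and chow averaged 149.9 ± 15.1 CPM. Of 14 endothelial genes 1 was higher and 11 lower, with a median of -0.95, and in FMRKO mice 2 were higher and 10 lower. They included the receptor gene Tie1 (-1.48 ± 0.12), the von Willebrand factor gene Vwf (-1.12 ± 0.09), the junction genes Esam (-1.10 ± 0.14) and Cdh5 (-1.07 ± 0.12). The higher one was Rgcc (1.39 ± 0.18), a cell cycle regulator expressed in endothelium. The endothelial count stayed between 10 and 12 lower genes over the 22 alternative fits. The list mean was 6.24, 6.01, 6.09 and 6.04 in corticosterone controls 1 to 4, against 6.68, 6.84, 6.95 and 6.53 in high-fat diet controls 1 to 4.

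Collagen, stromal and Wnt modulator genes were more often lower than higher, and matrix remodelling genes were called in both directions, beside 10.9% of all genes higher and 13.2% lower. Col14a1, a fibril-associated collagen, was at 10.04, 24.1, 16.1 and 16.3 CPM in corticosterone controls 1 to 4, against 69.2, 87.1, 71.8 and 51.5 CPM in high-fat diet controls 1 to 4. Corticosterone libraries lay below all high-fat libraries (-2.07 ± 0.25, adjusted p = 0.0011), and chow averaged 78.2 ± 33.8 CPM. Of 16 collagen genes 2 were higher and 5 lower (median -0.58), with Col8a1 (-1.64 ± 0.22) lower and Col18a1 (0.75 ± 0.17) higher. Of 22 matrix remodelling genes 5 were higher and 6 lower (median -0.23), among them fibronectin Fn1 (-1.33 ± 0.30) and biglycan Bgn (-1.08 ± 0.17), and, on the higher side, the protease gene Adamts1 (1.52 ± 0.18). Of 18 stromal genes 3 were higher and 7 lower (median -0.51), with Thy1 (-2.31 ± 0.37), Dpp4 (-1.02 ± 0.21) and Fmo2 (1.68 ± 0.28). Without both lymph node libraries Thy1, Dpp4 and Fmo2 kept their calls. With the lymphocyte and muscle list means as covariates they missed the threshold, at -1.32, -0.53 and 1.02 (adjusted p = 0.202, 0.437 and 0.308). Wnt modulators had 1 higher and 4 lower of 11 (median -0.46), including the secreted inhibitor gene Sfrp1 (-1.11 ± 0.23). In FMRKO mice the lower members numbered 9, 12, 6 and 5 and the higher ones 1, 4, 3 and 1 in these 4 lists, in the same order. Lower collagen genes numbered 3 without corticosterone control 1, 3 or 4 or high-fat diet control 1, 2 or 3 and 2 without both muscle libraries. Higher matrix remodelling genes numbered 2 to 3 without corticosterone control 2 or 3 or high-fat diet control 1, 2 without both lymph node libraries and 2 without both muscle libraries. Lower matrix remodelling genes numbered 2 without corticosterone control 4. Lower stromal genes numbered 4 without corticosterone control 1 or 4. Lower Wnt modulator genes numbered 1 to 2 without corticosterone control 1, 3 or 4.

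**Figure D4:**
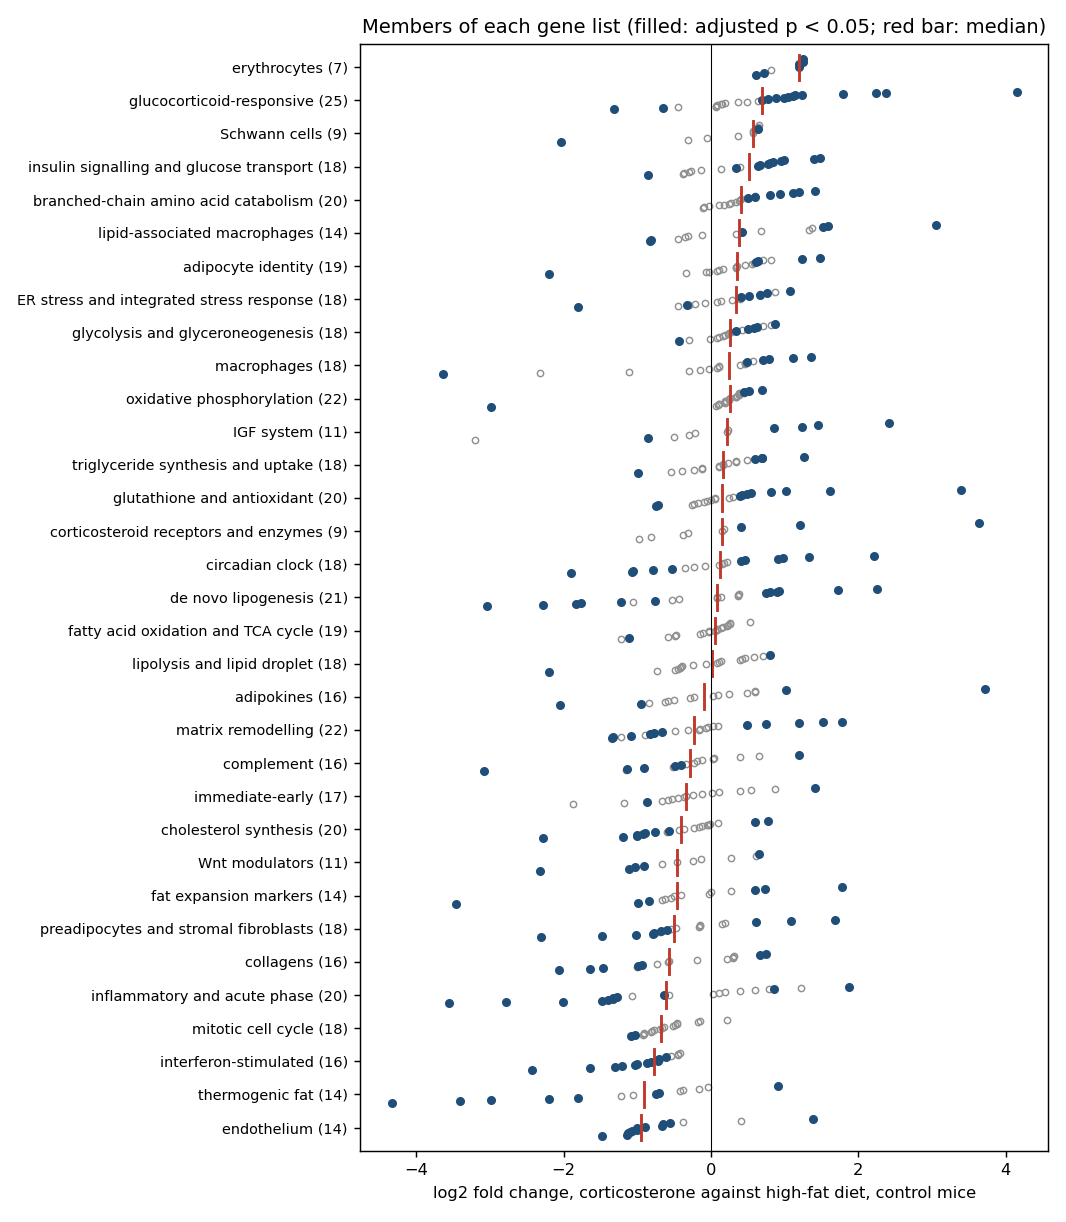
Log2 fold change of corticosterone over high-fat diet in control mice for each tested member of each list (number of members in parentheses), filled where the adjusted p was under 0.05, with a red bar at the list median. Lists run from the highest median at the top (erythrocytes, 1.19) to the lowest at the bottom (endothelium, -0.95); the lists of lymph node, muscle and epithelium are left out.

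Of the inflammatory mediators, more were lower than higher with corticosterone. Ccl8, a chemokine that attracts monocytes, was at 0.717, 3.1, 2.15 and 1.03 CPM in corticosterone controls 1 to 4, against 13.9, 21, 23.3 and 24.7 CPM in high-fat diet controls 1 to 4. All corticosterone libraries were below all high-fat libraries (-3.55 ± 0.44, adjusted p = 0.0011). Of 20 genes 2 were higher and 9 lower (median -0.60), and in FMRKO mice 5 were higher and 5 lower. Lower genes included serum amyloid Saa3 (-2.78 ± 0.37), the alarmin Il33 (-2.01 ± 0.38), the adhesion gene Icam1 (-1.47 ± 0.26) and Nos2 (-1.40 ± 0.20). Ccl2, another monocyte chemokine, was at 7.53, 17.7, 20.8 and 32.3 CPM in corticosterone controls 1 to 4, against 4.03, 4.46, 8.17 and 4.68 CPM in high-fat diet controls 1 to 4. It was higher with corticosterone, although corticosterone control 1 lay below the highest high-fat library (1.87 ± 0.42, adjusted p = 0.013). The protease inhibitor gene Serpina3n (0.85 ± 0.19) was the other higher member. Of 16 complement genes 1 was higher and 5 lower (median -0.28), with C6 (-3.08 ± 0.39) and C4b (-0.91 ± 0.16) lower and the anaphylatoxin receptor gene C3ar1 (1.20 ± 0.24) higher, and in FMRKO mice 1 was higher and 5 lower. Higher inflammatory and acute phase genes numbered 4 without high-fat diet control 3 and 4 without both muscle libraries. Lower complement genes numbered 2 to 3 without corticosterone control 1, 3 or 4 and 3 without both muscle libraries. Ccl2 lost its call without both lymph node libraries (1.65). C3ar1 lost its call in a fit of all 24 libraries (adjusted p = 0.058). Il33 and Icam1 kept their calls without both lymph node libraries. With the lymphocyte and muscle list means as covariates, Il33 (-0.74) and Icam1 (-0.23) missed the threshold (adjusted p = 0.52 and 0.58). So did, on the higher side, Ccl2 (1.41), Serpina3n (0.26) and C3ar1 (0.70), with adjusted p = 0.39, 0.62 and 0.31.

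More macrophage genes were higher than lower with corticosterone, beside 10.9% of all genes higher and 13.2% lower. Of 18 macrophage markers 5 were higher and 1 lower (median 0.25), with the hyaluronan receptor gene Lyve1 (1.35 ± 0.18) higher, and in FMRKO mice 7 were higher and 0 lower. Of 14 markers of lipid-associated macrophages 4 were higher and 2 lower (median 0.38), with the glycoprotein gene Gpnmb (1.58 ± 0.36) and osteopontin Spp1 (3.05 ± 0.85) higher and the phosphatase gene Acp5 (-0.83 ± 0.19) lower, and in FMRKO mice 7 were higher and 2 lower. The background in FMRKO mice was 11.6% higher and 10.4% lower. The list means overlapped, at 5.13, 5.63, 5.46 and 5.68 in corticosterone controls 1 to 4, against 5.22, 5.51, 5.34 and 5.74 in high-fat diet controls 1 to 4 for macrophage markers. Higher macrophage genes numbered 1 to 3 without corticosterone control 2, 3 or 4 or high-fat diet control 1, 3 or 4, 2 without both lymph node libraries and 1 without both muscle libraries. Higher lipid-associated macrophage genes numbered 1 to 7 without corticosterone control 1, 2, 3 or 4 or high-fat diet control 1, 0 without both lymph node libraries and 0 without both muscle libraries. Gpnmb lost its call without both lymph node libraries (1.44), without both muscle libraries (1.42) and in a fit of all 24 libraries (adjusted p = 0.061). Spp1 lost its call without corticosterone control 3 or 4 or high-fat diet control 1, 2 or 3 (1.69 to 3.25), without both lymph node libraries (3.19), without both muscle libraries (3.35), in a fit of all 24 libraries (adjusted p = 0.064) and in limma-voom with quality weights (adjusted p = 0.186). Acp5 lost its call without both muscle libraries (-0.79).

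Interferon-stimulated genes were lower with corticosterone in control mice, and none was called in FMRKO mice. Of 16 genes 0 were higher and 12 lower in control mice (median -0.77), against 0 higher and 0 lower in FMRKO mice (median 0.47, beside 0.00 over all genes there). Mx1, an antiviral GTPase, was at 0.824, 0.814, 0.66 and 0.941 CPM in corticosterone controls 1 to 4, against 3.7, 1.94, 4.31 and 7.52 CPM in high-fat diet controls 1 to 4. Its groups did not overlap (-2.43 ± 0.40, adjusted p = 0.0038), and chow averaged 8.94 ± 5.86 CPM. Others were Ifi44 (-1.64 ± 0.29), Oasl2 (-1.30 ± 0.20) and Rsad2 (-1.21 ± 0.24). In FMRKO mice the list mean was 5.69 in corticosterone FMRKO 2, against 2.94 to 3.10 in the other 3 corticosterone libraries and 3.62 to 3.91 on the high-fat diet. Without that library 0 were higher and 10 lower in FMRKO mice, with a median of -0.68. In the test of the difference between genotypes, given at the end, 0 genes passed. Lower interferon-stimulated genes numbered 7 without both muscle libraries. Mx1 lost its call in a fit of 16 libraries (adjusted p = 0.051). Ifi44 lost its call in a fit of all 24 libraries (adjusted p = 0.074) and in a fit of 16 libraries (adjusted p = 0.098). Oasl2 lost its call in a fit of all 24 libraries (adjusted p = 0.083) and in a fit of 16 libraries (adjusted p = 0.091).

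Genes of the circadian clock differed in both directions. Dbp, a transcription factor driven by the clock, was at 8.85, 6.48, 8.17 and 12.7 CPM in corticosterone controls 1 to 4, against 25.7, 30.9, 44 and 33.4 CPM in high-fat diet controls 1 to 4. Corticosterone libraries were all lower (-1.89 ± 0.23, adjusted p = 0.0011), and chow averaged 79.1 ± 13.5 CPM. Npas2, a partner of the clock activator, was at 11.8, 13.8, 9.45 and 7.66 CPM in corticosterone controls 1 to 4, against 3.29, 2.34, 2.43 and 1.2 CPM in high-fat diet controls 1 to 4. It was higher without overlap (2.21 ± 0.31, adjusted p = 0.0018). Of 18 clock genes 6 were higher and 5 lower (median 0.13), with the activator gene Arntl (1.33 ± 0.19) on the higher side and Ciart (-1.05 ± 0.23) on the lower. In FMRKO mice 4 were higher and 3 lower. The sources used here do not give the time of day of tissue collection, and its part was not tested. The E-box written CACGTG was in 2349 of 32851 promoters (7.15%), in 0 of the 5 higher and 1 of the 4 lower clock genes with a promoter in the table, which was Ciart with 3 matches. Of 17 immediate-early genes 1 was higher and 1 lower (median -0.33), and of 18 mitotic genes 0 were higher and 2 lower (median -0.67), with FMRKO counts of 4 and 0, and 0 and 1. In control mice the share called in the immediate-early and mitotic lists was below the 24.1% of all genes. Higher clock genes numbered 3 without corticosterone control 1 or 3 and 2 without both muscle libraries. Lower clock genes numbered 2 without both muscle libraries. Ciart lost its call without both muscle libraries (-1.04).

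Among antioxidant genes, the largest change was in Gpx3. Gpx3, the glutathione peroxidase secreted into plasma, was at 2009, 1308, 2014 and 2547 CPM in corticosterone controls 1 to 4, against 184, 195, 218 and 155 CPM in high-fat diet controls 1 to 4. The groups were far apart (3.39 ± 0.22, adjusted p = 2.0e-04), and chow lay between them at 860.03 ± 119 CPM. Of 20 genes of this list 8 were higher and 2 lower (median 0.15), with the glutathione transferase genes Gsta3 (1.62 ± 0.28) and Gstm1 (1.02 ± 0.12), members of families of similar sequence. In FMRKO mice 7 were higher and 2 lower. Of 18 genes of ER stress and the integrated stress response 5 were higher and 2 lower (median 0.34), with the serine synthesis gene Phgdh (1.08 ± 0.15) and the transcription factor genes Xbp1 (0.75 ± 0.12) and Atf4 (0.51 ± 0.08), and in FMRKO mice 9 were higher and 0 lower. Higher antioxidant genes numbered 5 without corticosterone control 4 or high-fat diet control 1 and 5 without both muscle libraries. Lower antioxidant genes numbered 5 without high-fat diet control 4 and 4 without both lymph node libraries. Higher stress response genes numbered 8 without high-fat diet control 2. Lower stress response genes numbered 4 without high-fat diet control 4.

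Transcripts of other cells in the pad also differed. Of all counts, globin genes made up 0.326, 0.222, 0.293 and 0.228% in corticosterone controls 1 to 4, against 0.122, 0.107, 0.146 and 0.0726% in high-fat diet controls 1 to 4, without overlap (exact permutation p = 0.0286, the smallest possible, 0.0429 adjusted over 3 shares). Of 7 erythrocyte genes 6 were higher and 0 lower (median 1.19), with Hba-a1 at 1.25 ± 0.25 and Hbb-bs at 1.25 ± 0.27, genes with near-identical copies. In FMRKO mice 2 were higher and 0 lower. Hba-a1 (0.36, adjusted p = 0.654) and Hbb-bs (0.21, adjusted p = 0.792) missed the threshold with the lymphocyte and muscle list means as covariates. Blood in the tissue and other sources of these transcripts were not tested. The lymphocyte list had 0 higher and 18 lower of 19 in control mice (median -6.23). In FMRKO mice, where the list means overlapped between the groups, it had 0 and 0 (median -2.58). The muscle list had 0 higher and 0 lower of 15 and the epithelium list 0 and 1 of 3. Schwann cell genes had 1 higher and 1 lower of 9 (median 0.56), the lower one being S100b (-2.03 ± 0.32), a calcium-binding protein also made by fat cells.

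**Figure D5:**
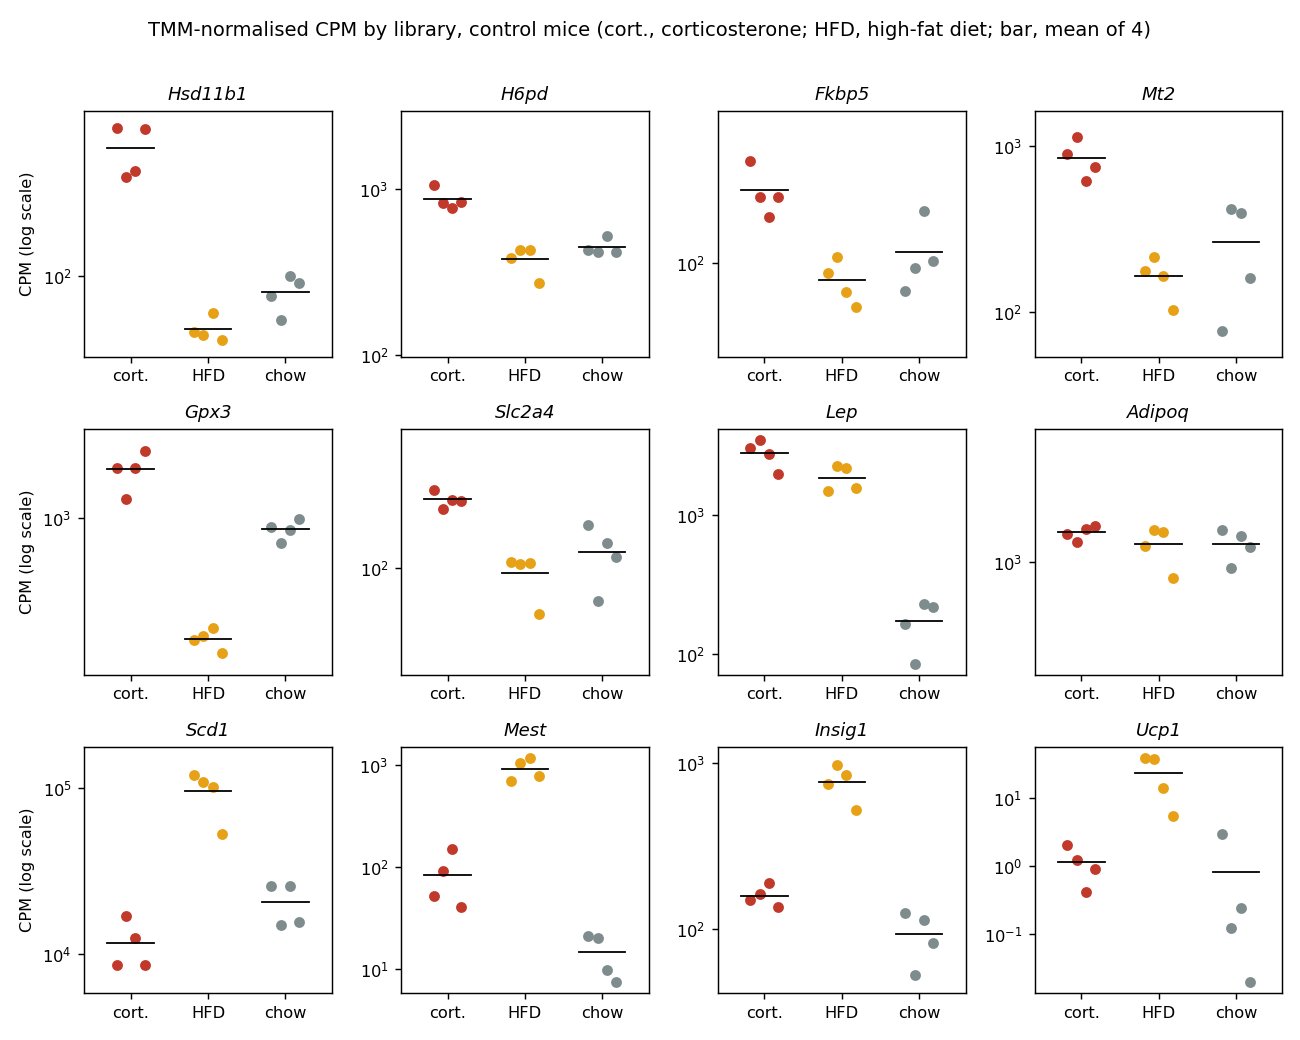
TMM-normalised CPM of 12 genes in each control library, corticosterone (red), high-fat diet (orange) and chow (grey), on log axes with 4 points per group in order of library number and a black bar at the group mean; a value of 0 is drawn at 0.02 CPM. Lep stands high in both treated groups and low on chow, whereas Hsd11b1 is high with corticosterone only and Scd1, Insig1 and Ucp1 are highest on the high-fat diet.

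Whether the contrast differed between control and FMRKO mice was tested directly in the 16 corticosterone and high-fat libraries. Of 18518 genes, 0 passed in edgeR (0%), with 668 at an unadjusted p under 0.05, and DESeq2 called 1 gene, Ltf, with 897 at an unadjusted p under 0.05. For Hsd11b1 the difference of control minus FMRKO in log2 fold change was -0.19 ± 0.35, for Scd1 0.26 ± 0.47, for Fkbp5 -0.27 ± 0.36 and for Gpx3 0.67 ± 0.25 (adjusted p = 1.000, 1.000, 1.000 and 1.000). A p above the threshold does not show that the genotypes respond alike.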

How the data were processed

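The authors' deposited counts of reads per gene were made with STAR 2.5.1a and featureCounts 1.4.6p-5 (Subread) on GRCm38, per the submitters' processing notes. The sources used here do not give the annotation release, the strand setting or the handling of multiple hits. Overlapping genes on opposite strands and near-identical genes are therefore uncertain. The authors' deposited CPM columns were not used for tests, and the authors' deposited RPKM columns served only to compare levels between genes. CPM values in the text were computed from the counts after TMM scaling.

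The 8 libraries were fitted in edgeR 4.0.16 (R 4.3.3), with genes kept by filterByExpr at a minimum count of 10, by quasi-likelihood tests with 6 residual degrees of freedom, a prior of 2.91 and a biological coefficient of variation of 28.6%. FMRKO libraries were fitted likewise, and the difference between genotypes in 16 libraries. Alternatives used DESeq2 1.42.0, limma 3.58.1, other scalings, filters and libraries. The SE of a fold change was derived from the quasi-likelihood test, as the absolute log2 fold change divided by the square root of its F statistic. List means are log2 CPM with a prior count of 0.5. Within groups, all library pairs differed by more than counting error (chi-square test).

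The genes compared and the gene lists were chosen with earlier results of these data known. Genes named are fixed receptors, enzymes and adipokines; the 12 with the largest change per direction among called genes without overlap and with a mean of at least 1 CPM; up to 6 called members per list and up to 3 in the other direction; the 5 called genes of highest level per direction; genes with a searched promoter motif; and, chosen after their values were seen, Timp4 and the 12 lower genes called in 4 fits, the adipocyte markers Fabp4, Plin1 and Cidec, and Fasn, Srebf1, Srebf2, Lipe, Pnpla2, Slc25a1, Elovl5, Tkt, Acaca, G6pdx, Acly and Ltf. Of the fixed genes, Ptgds had counts too low to be tested. Some genes that the rule selects are not reported here.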

Additional observations from a re-analysis of the deposited data

Results flagged for a closer look

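In groups of 4 libraries, a library was marked when its gap to the nearest other library exceeded Dixon's 95% critical value as a share of the group's range, which chance does in about 1 of 20 groups. Of 136 groups of values, 9 were marked.

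High-fat diet control 4 had the lowest value in 3 of them. Its lipogenesis list mean was 7.75 log2 CPM against 8.49 in the other high-fat libraries, its branched-chain amino acid list mean 5.67 against 6.29 to 6.39, and Slc2a4 stood at 52.9 CPM against 105 to 109. This library also had the highest lymphocyte list mean, and the part of that in these values was not tested.

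High-fat diet control 3 had the highest value in 4 of them. These were the muscle list mean, 3.58 log2 CPM against 0.26 to 0.67, Agt at 24.4 CPM against 5.12 to 5.65, Ccl2 at 8.17 CPM against 4.03 to 4.68, and Ripply1 at 0.0695 CPM against 0 in the other high-fat libraries. Corticosterone control 1 had a clock list mean of 5.06 log2 CPM against 4.82 to 4.84 in the other corticosterone libraries. In high-fat diet control 2 the Schwann cell list mean was 2.38 log2 CPM against 2.70 to 2.74 in the rest of its group.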

How the results depend on the processing

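Leaving out 1 library at a time gave 1114 to 2158 higher and 1458 to 2340 lower genes in control mice, and 1263 to 2007 higher and 1159 to 1987 lower in FMRKO mice. Without the muscle libraries 944 were higher and 1445 lower in control mice, without lymph node and muscle libraries (chosen after seeing the data, with a single high-fat library left) 376 and 752, and with the lymphocyte and muscle list means as covariates 248 and 686. The lymphocyte means do not overlap between the groups, so the covariates share much of the contrast itself. Of 156 named genes called, 138 kept the call whichever single library was left out, 56 kept it in every alternative, and 91 with the same sign missed it with the covariates, where Spib (0.61) turned sign.

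Deviations of same-numbered libraries from their group means correlated at -0.04 to 0.132 in control mice and -0.372 to -0.168 in FMRKO mice, across genes. Single libraries with lymph node or muscle transcripts enter these correlations, so they cannot decide whether same-numbered libraries belong together. With the replicate number as a block, 1324 genes were higher and 1733 lower in control mice, 1207 and 1093 in FMRKO mice, and 0 for the difference between genotypes. For that difference DESeq2 called 1 gene, lower, and every edgeR alternative 0. Depth limits weakly expressed genes such as Ripply1.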
